A study of Drosophila melanogaster with 18 samples.

Results

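The 9 genes described here make, store and release the fatty acids of membrane lipids and lipid droplets in Drosophila: Cyt-b5, Desat1, FASN1, ACC, mdy, Lpin, bmm, Lsd-1 and Lsd-2. They were chosen by name, as the features whose FlyBase identifier carries one of these symbols, and they are 9 of the 17811 features counted. Nuclei of photoreceptors R1 to R6 were immunoenriched from male flies, ribosomal RNA was removed from the nuclear RNA, and paired reads were counted on genes in 18 samples, 3 in each of 6 conditions. Untreated flies were taken at day 5 (D5), day 15 (D15) and day 30 (D30), and other D5 flies were exposed to blue light for 3, 5 or 8 h and frozen straight after it (3 h, 5 h and 8 h below). Each sample pooled many flies, and the 3 samples of a condition were biological replicates by the methods of the study. All groups carried w1118 and cn bw, which removes eye pigment, and Rh1-GFP-Msp300KASH, a GFP-tagged nuclear membrane domain under the ninaE (Rh1) promoter that marks R1 to R6. In the mapped line of this transgene the insertion lies in the 5′ untranslated region of Catalase, which these flies overexpress, and the untreated D5 controls carry it as well. D5 and D15 libraries shared a sequencing lane, the blue light libraries shared another, and the D30 libraries came from another flow cell, so lane and condition cannot be told apart in a comparison of blue light or of D30 with D5.

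Fatty acids are built from acetyl-CoA by acetyl-CoA carboxylase and fatty acid synthase. A desaturase of the endoplasmic reticulum then puts a double bond into the chain with electrons that cytochrome b5 carries to it. Acyl chains are joined to glycerol to give phospholipids and triglyceride, and triglyceride is kept in droplets coated with perilipins until a lipase releases it. In the fly eye, overexpressed Cyt-b5 is known to protect photoreceptors against blue light, and lipids of the rhabdomere membrane are a target of light-induced oxidation.

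All 9 genes passed the filter of more than 10 counts in every sample, which kept 9427 features. Read pairs counted on genes ranged from 11.4 to 20.5 M per sample, and the smallest count of any of the 9 genes in any sample was 100, for mdy. Levels are given as TMM-normalized cpm (counts relative to the size of the library), with the mean ± SD of 3 samples, before any further correction. Log2 fold changes and their standard errors (SE) come from an edgeR quasi-likelihood fit of all 18 samples with 2 RUVs factors, which are estimated from the spread between replicates. A gene was called higher or lower at an adjusted p under 0.05 over all 9427 features (Benjamini-Hochberg). The 5 comparisons with D5 share the same D5 samples.

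Between genes, levels were compared per exon length, as RPKM (cpm per kilobase of exon). On that scale Lpin was the most abundant of the 9, with a median of 303 RPKM over the 18 samples, above 99.2% of the features tested. FASN1 followed at 167 RPKM (98.1%), ACC at 86.0 RPKM (95.4%) and Desat1 at 83.6 RPKM (95.3%). Cyt-b5 had a median of 35.5 RPKM (86.9%), Lsd-2 of 24.9 RPKM (80.9%), bmm of 21.0 RPKM (77.5%) and Lsd-1 of 16.4 RPKM (72.4%). The triglyceride-forming mdy was the rarest, at 4.54 RPKM, below the middle of the tested features (35.7%). Of the 9, Lpin, FASN1, ACC and Desat1 were thus among the most abundant nuclear transcripts, whereas mdy, the acyltransferase that finishes triglyceride, was not. This does not extend to every enzyme of these steps. The highest mean of a condition was 2.89 RPKM for the fatty acid synthase gene FASN2 (D15) and 3.06 RPKM for the acyltransferase gene Agpat2 (D30).

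Several of these genes are also known for high expression in fat body, so markers of other cells were followed in the same samples. The summed level of 11 markers of R1 to R6 photoreceptors lay between 46145 and 86511 cpm. The summed level of 10 fat body markers, most of it apolpp, was far lower but differed between conditions. It ranged over 1720 to 2533 cpm at D5, 1342 to 1586 cpm at 3 h, 823 to 1681 cpm at 5 h and 651 to 1091 cpm at 8 h, then 971 to 1128 cpm at D15 and 1123 to 2089 cpm at D30. The fat body sum was thus lower than at D5 in every exposed and every D15 sample, without overlap. Of the 7 fat body markers tested singly, 2 were lower than D5 without overlap at 3 h, 3 at 5 h, 4 at 8 h and 2 at D15. The shares of all features lower in this way were 22.9%, 14.2%, 25.2% and 17.2%. None of the 7 was higher in this way, where 22.3%, 12.6%, 25.1% and 16.8% of all features were. Of the defining fat body genes, Fbp1, Fbp2 and Adh had medians under 1 cpm and Fbp2 was at 0 in 5 samples, whereas Lsp2 fell at 8 h, from 69.6 ± 26.2 to 22.0 ± 3.86 cpm. Glial markers summed to 1525 to 2223 cpm at 3 h against 649.8 to 753 cpm at D5, but Eaat1 alone made up 1406 ± 384 cpm of the 3 h sum, and of the 10 glial markers 1 was higher and 4 were lower than D5 without overlap. Of all features, 22.3% were higher and 22.9% lower in this way at 3 h. D30 replicate 1 stood apart from the other D30 samples, with the lowest sum of R1 to R6 markers (46145 cpm against 74536 and 86511 cpm) and the highest sums of fat body (2089 cpm) and muscle markers (2406 cpm). The part of these markers in the results on the 9 genes was not tested, and in such bulk samples fewer nuclei of a type cannot be told apart from less RNA per nucleus.

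**Figure D1:**
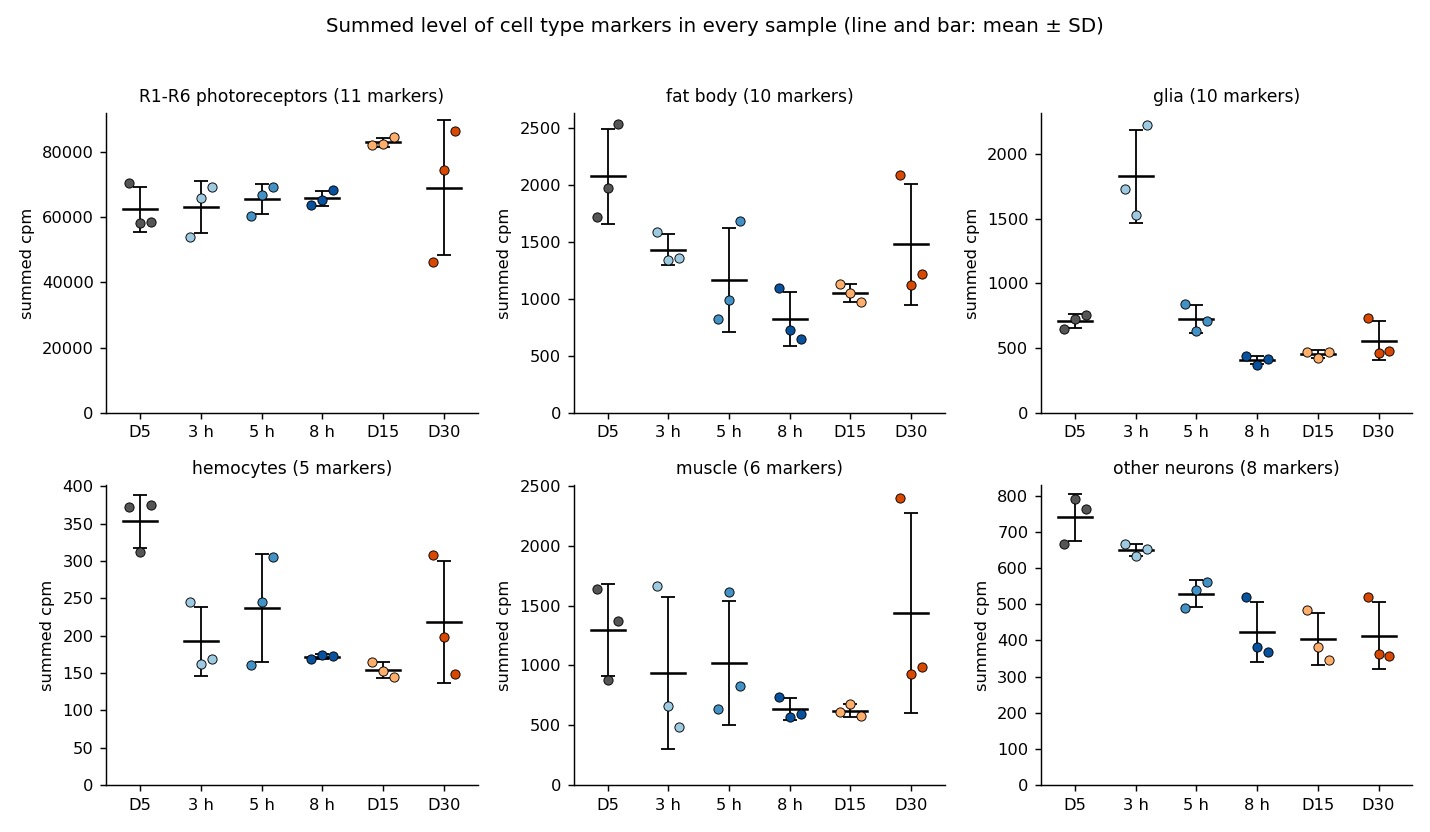
Summed TMM-normalized cpm (y axis) of marker genes of 6 cell types in each of the 18 samples, by condition (x axis), with points for replicates 1 to 3 and a line and bar for the mean ± SD. The fat body sum lies lower in all exposed and D15 samples than in the D5 samples (1720 to 2533 cpm), and D30 replicate 1 has the lowest R1 to R6 sum (46145 cpm) and the highest muscle sum (2406 cpm).

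Cyt-b5 (FBgn0264294) encodes the small heme protein of the endoplasmic reticulum that passes electrons to desaturases and other oxygen-using enzymes. The gene lies on chromosome arm 2R at 7533506 to 7535936 of build BDGP6.54, plus strand, and 18 of its 917 exonic bases overlap exons of Gpo2 on the same strand. The 3 D5 samples had 32.8, 36.4 and 31.6 cpm (33.6 ± 2.46, SD, n = 3). After 3 h of blue light the samples had 36.5, 39.6 and 34.9 cpm, after 5 h 52.6, 37.9 and 38.5 cpm, and after 8 h 32.4, 29.9 and 34.7 cpm. All 5 h samples lay above all D5 samples, although 5 h replicate 1 was well above the other two, and the 3 h and 8 h samples overlapped D5. In older flies the level was 24.4, 26.5 and 25.8 cpm at D15 and 32.3, 29.1 and 27.3 cpm at D30. The D15 samples were all below the D5 samples and below the D30 samples. From high to low the mean levels were ordered 5 h, 3 h, D5, 8 h, D30 and D15, and of neighbours in this order only D30 and D15 did not overlap. Cyt-b5 varied least of the 9 genes, its highest sample being 2.16-fold above its lowest.

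The test called Cyt-b5 in none of the 8 comparisons. The log2 fold change against D5 was −0.05 (SE 0.14, adjusted p = 0.882) at 3 h, 0.31 (SE 0.13, adjusted p = 0.128) at 5 h and 0.06 (SE 0.14, adjusted p = 0.813) at 8 h. At 3 h and 8 h the sign turned without the RUVs factors, to 0.14 and −0.06, both within about 1 SE of 0. With age it was −0.39 (SE 0.12, adjusted p = 0.0827) at D15 and −0.24 (SE 0.12, adjusted p = 0.170) at D30. The D15 value passed the threshold when only the 6 D5 and D15 samples were fitted, at −0.43 (SE 0.12, adjusted p = 0.0367). From 3 h to 5 h the log2 fold change of Cyt-b5 was 0.36 (SE 0.12, adjusted p = 0.0804), and with a filter of cpm over 10 throughout it was called higher (0.33, SE 0.11, adjusted p = 0.0456).

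The 5 features whose log2 cpm followed Cyt-b5 most closely over the 18 samples, out of 9426, were Fdh (Pearson r = 0.921), GstD1 (0.859), Coq6 (0.854), ND-B18 (0.854) and Mic26-27 (0.852). Fdh encodes the glutathione-dependent formaldehyde dehydrogenase, GstD1 a glutathione S-transferase, Coq6 an enzyme of coenzyme Q synthesis, ND-B18 a subunit of respiratory complex I and Mic26-27 a subunit of the cristae-organizing MICOS complex. These correlations are a description across 18 libraries that share lanes and conditions, and 1 in 100 of all features reached an r of 0.753. None of the other 8 lipid genes was among the 5, and their r with Cyt-b5 ranged from −0.601 for bmm to 0.495 for Lsd-2. Desat1, the desaturase that receives electrons from cytochrome b5, had an r of −0.06 with it.

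**Figure D2:**
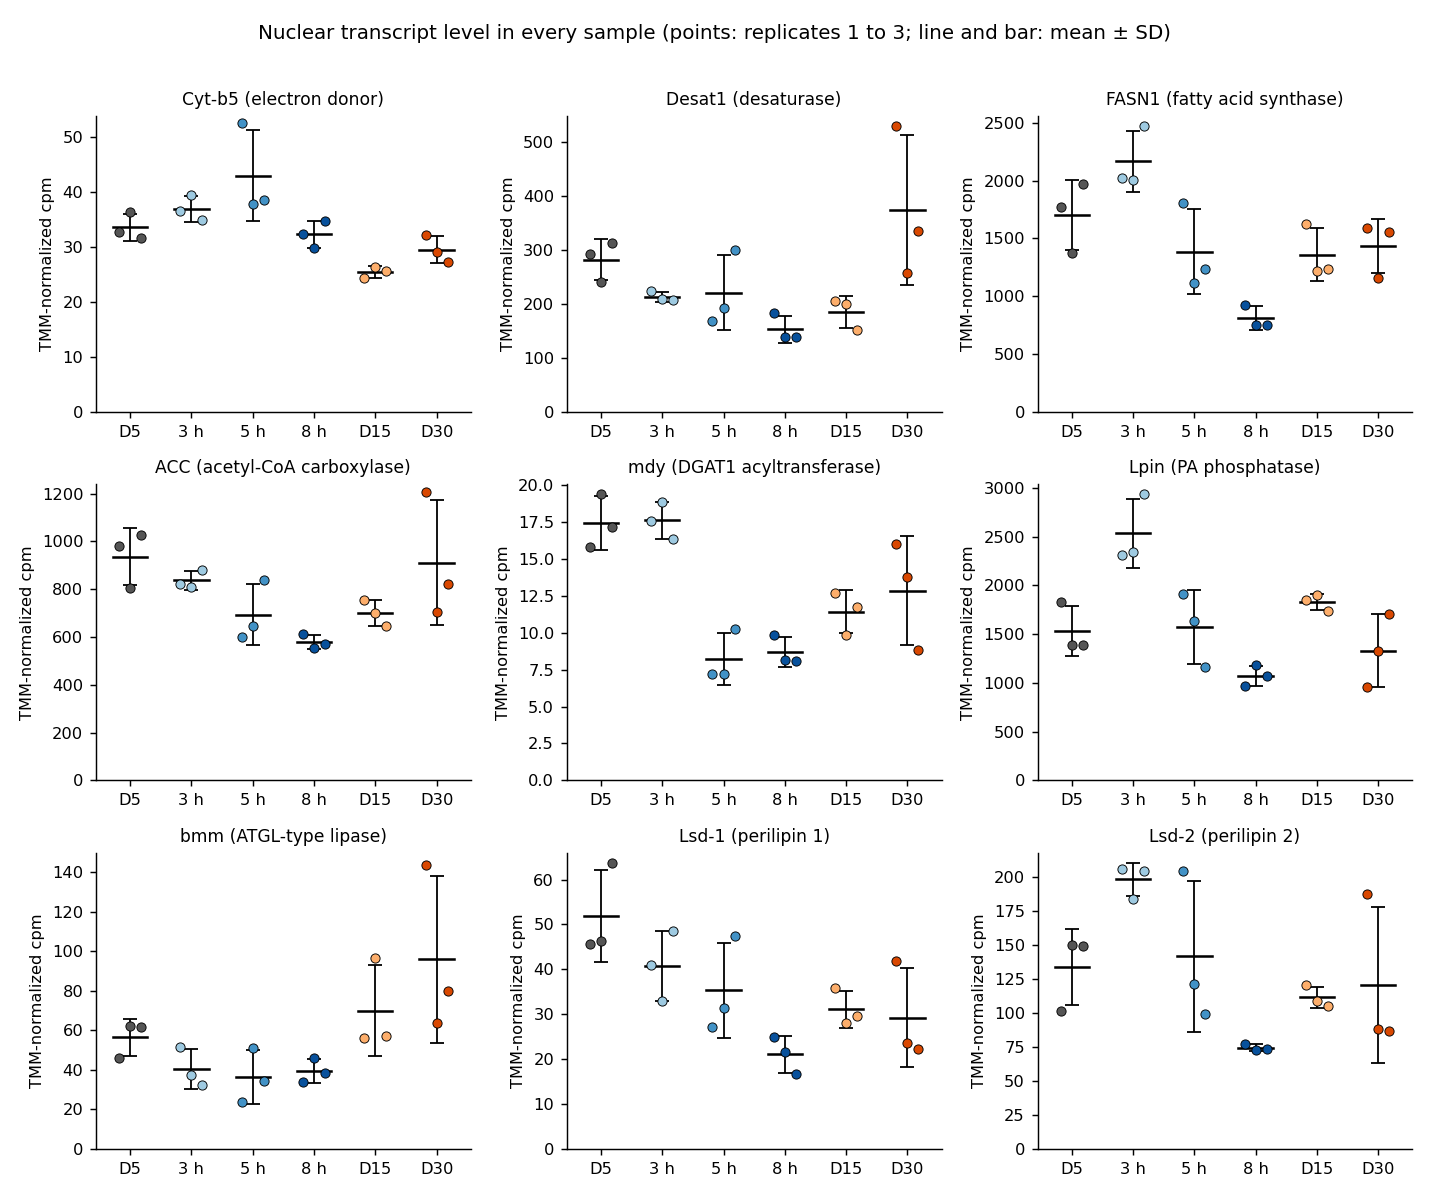
TMM-normalized cpm (y axis, from 0) of the 9 genes in each sample by condition (x axis), with points for replicates 1 to 3 and a line and bar for the mean ± SD. The 8 h samples of FASN1, Lsd-1 and Lsd-2 lie below all D5 samples, the 5 h and 8 h samples of mdy lie at or below 10.3 cpm, and D30 replicate 1 is highest in Desat1 (528 cpm), ACC (1207 cpm) and bmm (144 cpm).

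Desat1 (FBgn0086687, 3R at 12439600 to 12447616, plus strand) encodes the delta-9 acyl-CoA desaturase. Its D5 samples had 293, 240.3 and 312 cpm (282 ± 37.3). The 8 h samples had 182, 138 and 139 cpm, all below D5, and the log2 fold change was −0.63 (SE 0.22, adjusted p = 0.0838), which missed the threshold. Without the factors the 8 h decrease passed it (−0.88, SE 0.25, adjusted p = 0.0256). At D30 the samples were wide apart, at 528, 258 and 335 cpm, and overlapped D5. The D30 value of 528 cpm came from replicate 1. The log2 fold change at D30 was 0.31 (SE 0.18, adjusted p = 0.266), or 0.17 (SE 0.17) without that sample. With a filter of cpm over 10 in every sample, Desat1 was called higher at D30 (0.48, SE 0.15, adjusted p = 0.0322).

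FASN1 (FBgn0283427, 2L at 3056598 to 3068177, plus strand) encodes fatty acid synthase, and its transcript had the second highest level of the 9 per exon length. The D5 samples had 1769.6, 1375 and 1973 cpm (1706 ± 304). After 3 h they had 2020.3, 2008 and 2474 cpm, above all D5 samples, and after 8 h 928, 750.1 and 748 cpm, below all of them. The log2 fold change against D5 was 0.12 (SE 0.24, adjusted p = 0.818) at 3 h and −0.99 (SE 0.23, adjusted p = 0.0183) at 8 h. FASN1 was therefore called lower at 8 h, where its mean was 2.11-fold below D5, and not called at 3 h. From 3 h to 8 h, within 1 lane, it fell by 1.11 on the log2 scale (SE 0.27, adjusted p = 0.0140), and this call held in each of the 17 other settings, samples left out included. The call against D5 was lost only when D5 replicate 3, the highest D5 sample, was left out (adjusted p = 0.0600). The 5 h samples, at 1803, 1111 and 1240.0 cpm, lay between and overlapped D5, as did D15 (1625, 1223 and 1235 cpm) and D30 (1589.6, 1161 and 1553 cpm).

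ACC (FBgn0033246, 2R at 7974115 to 7991862, minus strand) encodes acetyl-CoA carboxylase, the enzyme before FASN1. It had 980.3, 803 and 1027 cpm at D5, 820.5, 809 and 882 cpm at 3 h and 614, 555 and 569.8 cpm at 8 h. The 8 h samples were below those of both other conditions. Against D5 its change at 8 h missed the threshold, at −0.52 on the log2 scale (SE 0.18, adjusted p = 0.0775), whereas from 3 h to 8 h ACC fell by 0.66 on the log2 scale (SE 0.21, adjusted p = 0.0427). The latter call was close to the threshold: it was kept in 1 of 6 fits with a sample left out, the one without 3 h replicate 1, reached an adjusted p of up to 0.127 in the others, and was lost with a block for replicate number (adjusted p = 0.0585). ACC followed Desat1 closely over the 18 samples (r = 0.891), with D30 replicate 1 highest in both (1207 cpm for ACC). As a description, Desat1 and ACC formed the closest pair among the 9 genes, followed by FASN1 and Lsd-2 (r = 0.823).

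Lpin (FBgn0263593, 2R at 8136986 to 8156654, minus strand) encodes the phosphatidate phosphatase that makes diacylglycerol, and mammalian lipins also act as transcriptional coregulators in the nucleus. Exons of kermit on the same strand overlap 10.9% of its exonic bases, so reads there could be assigned to neither gene or either. The D5 samples had 1826, 1389.5 and 1384 cpm (1533 ± 254). After 3 h of blue light Lpin reached 2313, 2344 and 2939 cpm, above every other sample of the study, and after 5 h it was at 1915, 1639 and 1166 cpm. After 8 h the samples had 965, 1178 and 1071 cpm, all below the D5 samples. By mean, Lpin thus went from its highest level at 3 h to its lowest at 8 h, and the log2 fold change was −1.20 (SE 0.19, adjusted p = 0.0013) from 3 h to 8 h and −0.67 (SE 0.15, adjusted p = 0.0112) from 3 h to 5 h. The call from 3 h to 8 h was kept in 16 of 17 other settings, whereas that from 3 h to 5 h was kept in 10 of 17 and lost, among others, without the factors (−0.69, adjusted p = 0.0713) and without 3 h replicate 1 (adjusted p = 0.111) or replicate 3 (adjusted p = 0.0544). From 5 h to 8 h it fell by 0.53 on the log2 scale (SE 0.14, adjusted p = 0.0362), a call that was lost without 5 h replicate 2, without any 1 of the 8 h samples and without the factors.

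Against D5 the reading of Lpin depended on the RUVs factors. With them, the log2 fold change was 0.32 (SE 0.17, adjusted p = 0.251) at 3 h and −0.88 (SE 0.16, adjusted p = 0.00507) at 8 h. Without them, it was 0.72 (SE 0.22, adjusted p = 0.0301) at 3 h and −0.52 (SE 0.22, adjusted p = 0.0994) at 8 h. So Lpin was called lower at 8 h with the factors and higher at 3 h without them, with the same sign in both fits at both times. With the factors, the 8 h call was lost under a filter of cpm over 1 in 3 samples (adjusted p = 0.161) and with no filter (adjusted p = 0.134). The first factor separated all 3 h samples from all D5 samples. The second separated all 5 h and all 8 h samples from all D5 samples, so the factors and these conditions cannot be fully told apart. The D15 samples of Lpin (1852, 1898 and 1739.9 cpm) and the D30 samples (959, 1331 and 1704 cpm) overlapped D5 and were not called.

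mdy (FBgn0004797, 2L at 16816660 to 16826964, plus strand) encodes the diacylglycerol acyltransferase DGAT1, which commits diacylglycerol to triglyceride. Its level was 15.8, 19.4 and 17.2 cpm at D5 and 17.6, 18.8 and 16.4 cpm at 3 h. At 5 h it was 7.204, 7.22 and 10.3 cpm, and at 8 h it was 9.85, 8.14 and 8.07 cpm. The D5 and 3 h samples overlapped, and every 5 h and 8 h sample was below all of them. The log2 fold change was −0.79 at 5 h against D5 (SE 0.17, adjusted p = 0.0112) and −1.10 at 5 h against 3 h (SE 0.18, adjusted p = 0.00172). In the means before correction the level at 5 h was 2.12-fold below D5 and 2.14-fold below 3 h. Among the 9 genes mdy was the only one called at 5 h against D5, and this call and the one against 3 h were kept in all 15 and 16 other settings in which mdy was tested. The 8 h value against D5 just missed the threshold (−0.64, SE 0.19, adjusted p = 0.0512) and passed it in 10 of 15 other settings, among them the fit without factors (−1.01, SE 0.21, adjusted p = 0.00735). From 5 h to 8 h the log2 fold change was 0.15 (SE 0.17, adjusted p = 0.626).

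With age mdy was at 12.7, 9.82 and 11.7 cpm at D15, all below D5, and at 16.01, 13.7 and 8.81 cpm at D30, overlapping D5. It was called lower at D30 (−0.59, SE 0.16, adjusted p = 0.0194) and not at D15 (−0.43, SE 0.16, adjusted p = 0.135). The D30 call rested on the factors, on the filter and on single samples, and was kept in 8 of 15 other settings. It was lost without the factors (−0.44, SE 0.21, adjusted p = 0.236), without D5 replicate 2 and without D30 replicate 3 (−0.23, adjusted p = 0.391). It was also lost with 1 factor (adjusted p = 0.153), with a filter of cpm over 1 in 3 samples (adjusted p = 0.0541) and with no filter (adjusted p = 0.0641).

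bmm (FBgn0036449, 3L at 14776496 to 14786412, minus strand) encodes the main triglyceride lipase of lipid droplets, the fly homolog of ATGL. It varied most of the 9 genes, with a 6.05-fold span from 23.7 cpm in a 5 h sample to 144 cpm in D30 replicate 1. At D5 it had 45.8, 62.0 and 61.7 cpm, at 8 h 33.8, 46.1 and 38.5 cpm, and at D30 144, 63.5 and 80.1 cpm. All D30 samples were above all D5 samples, and bmm was the only one of the 9 genes with that pattern. The log2 fold change at D30 was 0.65 (SE 0.31, adjusted p = 0.164), below the threshold, and it was 0.28 (SE 0.29, adjusted p = 0.558) without D30 replicate 1. The change passed the threshold with a filter of cpm over 10 in every sample (0.83, SE 0.25, adjusted p = 0.0272). After blue light bmm was not called in any comparison.

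Lsd-1 (FBgn0039114, 3R at 23763857 to 23766662, plus strand) encodes perilipin 1, which sits on droplets and takes part in stimulated lipolysis. Exons of CG10214 on the opposite strand overlap 7.35% of its exonic bases. The D5 samples had 45.6, 46.2 and 63.7 cpm (51.8 ± 10.3) and the 8 h samples 24.9, 21.6 and 16.8 cpm. Lsd-1 was called lower at 8 h against D5 (−0.94, SE 0.25, adjusted p = 0.0317) and against 3 h (−1.04, SE 0.29, adjusted p = 0.0278), and the 8 h samples did not overlap those of D5, 3 h (40.9, 33.0 and 48.6 cpm) or 5 h (27.1, 31.4 and 47.3 cpm). The mean at 8 h was 2.46-fold below D5. The call against D5 was lost without D5 replicate 3 or without 8 h replicate 3, with an adjusted p of up to 0.103, and with a block for replicate number (0.0948). The call against 3 h was kept in 2 of 6 fits with a sample left out and lost without 3 h replicate 3 or any 1 of the 8 h samples (adjusted p of up to 0.0887), and with the block (0.133). With age the level was 35.8, 28.02 and 29.5 cpm at D15 and 42.0, 23.7 and 22.2 cpm at D30, all below D5. Lsd-1 was called lower at D30 (−0.98, SE 0.21, adjusted p = 0.0072). That call was lost without D30 replicate 3 (adjusted p = 0.0518) and without the factors (−0.82, SE 0.27, adjusted p = 0.0865). It was also lost with a filter of cpm over 1 in 3 samples (adjusted p = 0.0671) and with no filter (adjusted p = 0.0559).

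Lsd-2 (FBgn0030608, X at 15069127 to 15076220, minus strand) encodes perilipin 2, which shields stored triglyceride from lipases. Its samples at 3 h (206, 184 and 204 cpm) were all above D5 (102, 150.1 and 149.6 cpm), and its samples at 8 h (77.5, 72.5 and 73.5 cpm) were all below. The replicates at 8 h were close together, whereas those at 5 h spanned 99.1 to 205 cpm. The log2 fold change with the factors was 0.20 (SE 0.22, adjusted p = 0.644) at 3 h, −0.29 (SE 0.22, adjusted p = 0.416) at 8 h and −0.49 (SE 0.25, adjusted p = 0.196) from 3 h to 8 h. Without the factors the last of these was −1.41 (SE 0.29, adjusted p = 0.00185), and the value at 8 h against D5 was −0.84 (SE 0.29, adjusted p = 0.0488). The perilipins thus differed in how they were called at 8 h with the factors, and the difference between them was not tested. At D30, Lsd-2 had 187 cpm in replicate 1 and 88.2 and 86.4 cpm in the others, and its log2 fold change was −0.43 (SE 0.18, adjusted p = 0.123), or −0.78 (SE 0.14, adjusted p = 0.00268) without replicate 1.

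**Figure D3:**
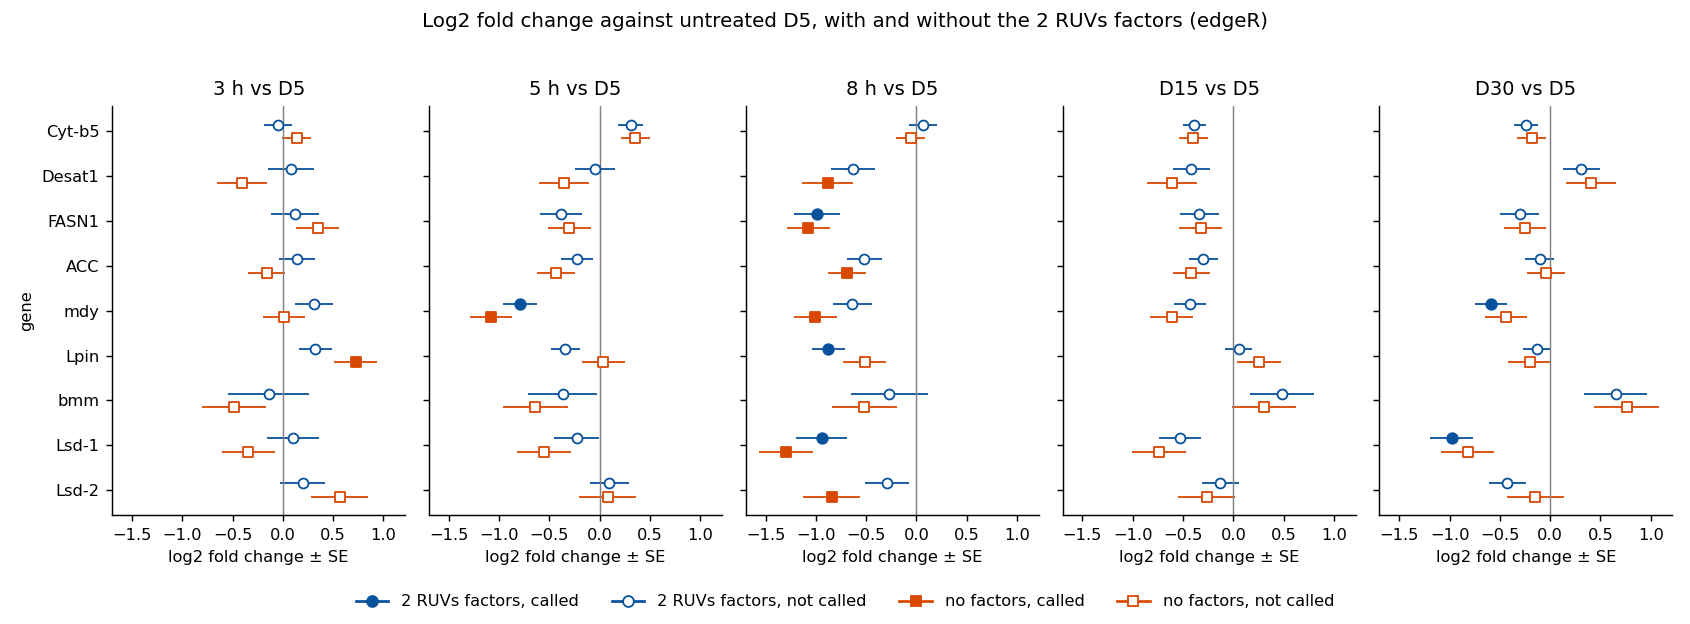
Log2 fold change ± SE (x axis) of the 9 genes (y axis) in the 5 comparisons with untreated D5, with 2 RUVs factors (circles) and without factors (squares), filled where the adjusted p was under 0.05. At 8 h, 8 of 9 values with the factors are below 0 and FASN1, Lpin and Lsd-1 are called, whereas Cyt-b5 stays near 0 (0.06). Of all features, 47.2% are above 0 in that comparison and 4.48% are called lower.

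Taken by condition, 0 of 9 genes were called at 3 h against D5 by edgeR, where 7.88% of all features were called in either direction. At an unadjusted p under 0.05 there were also 0, where 23.8% of all features were, and a DESeq2 Wald test with the same factors called 0. The median log2 fold change of the 9 was 0.12, against 0.01 over all features. All 3 h samples lay above all D5 samples in FASN1, Lpin and Lsd-2, where 22.3% of all features did so, and below them in Desat1, where 22.9% did. With the factors the log2 fold change of Desat1 was 0.08 (SE 0.23, adjusted p = 0.874), the opposite sign. Without the factors only Lpin was called, higher, where 12.9% of all features were called higher. At 5 h 1 of 9 was called, mdy, where 4.53% of all features were called lower, and the median was −0.23 against 0.01. The 5 h samples did not overlap D5 in Cyt-b5, where 12.6% of all features were higher in this way, and in mdy, where 14.2% were lower.

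At 8 h against D5, 3 of 9 genes were called, all lower (FASN1, Lpin and Lsd-1), where 4.48% of all features were called lower. In 7 of 9 genes all 8 h samples lay below all D5 samples, where 25.2% of all features did so, and the exceptions were Cyt-b5 and bmm. The median log2 fold change of the 9 was −0.63, against −0.03 over all features. Without the RUVs factors 6 of 9 were lower (Desat1, FASN1, ACC, mdy, Lsd-1 and Lsd-2), where 11.3% of all features were called lower, and without D5 replicate 3 only Lpin (1 of 9) was. The fat body markers Lsp2 (−1.36, SE 0.31, adjusted p = 0.0155) and apolpp (−0.91, SE 0.24, adjusted p = 0.0273) were called lower at 8 h too, and the fat body sum was at most 1091 cpm there against at least 1720 cpm at D5. The summed markers of every other cell type followed, R1 to R6 excepted, were also lower at 8 h than at D5 without overlap: at most 519.9 against at least 668 cpm for other neurons, 175 against 312 cpm for hemocytes, 738 against 876 cpm for muscle, 734 against 803 cpm for R7 and R8, 436 against 649.8 cpm for glia and 529 against 565 cpm for pigment and cone cells. Their part in the decrease of the 9 genes was not tested.

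Between exposures, which share a lane, the decrease was seen over most of the 9 genes. Both RUVs factors separated all 3 h from all 8 h samples, and the second separated all 5 h from all 8 h samples. In these 2 comparisons the factors and the length of exposure thus cannot be fully told apart. From 3 h to 8 h, 5 of 9 were called, all lower (FASN1, ACC, mdy, Lpin and Lsd-1), where 9.1% of all features were called lower, and the median was −0.71 against −0.01 over all features. Without the factors 6 of 9 were called lower, Lsd-2 being the added one, where 19.8% of all features were. In 8 of 9 the 8 h samples lay below all 3 h samples, where 29.2% of all features did so, and bmm was the exception. Cyt-b5 was among these 8, yet its log2 fold change with the factors was 0.11 (SE 0.16, adjusted p = 0.684), the opposite sign. The calls of FASN1, mdy and Lpin were kept without any 1 of the 6 samples, although that of mdy was lost with a block for replicate number (adjusted p = 0.0814), whereas 3 of 9 remained in all without 3 h replicate 3 or without any 1 of the 8 h samples. From 3 h to 5 h, 2 of 9 were called lower (mdy and Lpin), where 6.18% of all features were, and without 3 h replicate 3 it was 1 of 9, mdy. Samples did not overlap in 3 of 9 (FASN1, mdy and Lpin, all lower), where 11.7% of all features were lower in this way. From 5 h to 8 h, 1 of 9 was called lower (Lpin), where 4.35% of all features were, and 4 of 9 (Cyt-b5, FASN1, Lsd-1 and Lsd-2) were lower without overlap, where 10.9% of all features were. Of the markers tested, 4 of 10 for glia, 3 of 7 for fat body (Lsp2, Lsp1beta and apolpp) and 3 of 8 for other neurons were called lower from 3 h to 8 h as well, and 2 of 11 for R1 to R6 were.

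At D15, which shared its lane with D5, 0 of 9 genes were called by edgeR, where 3.81% of all features were called in either direction and 2.29% lower. At an unadjusted p under 0.05 there were 4 (Cyt-b5, Desat1, mdy and Lsd-1, all with a log2 fold change below 0), where 21% of all features were in either direction, and a DESeq2 Wald test called 0. All D15 samples lay below all D5 samples in 5 of 9 genes (Cyt-b5, Desat1, ACC, mdy and Lsd-1), where 17.2% of all features did so, and the median was −0.34 against −0.01 over all features. The fit of only the 6 D5 and D15 samples called Cyt-b5, Desat1, mdy and Lsd-1 lower, where that fit called 12.9% of all features lower. The cell type markers differed between these ages too. The R1 to R6 sum was higher at D15 without overlap (at least 82163 against at most 70468 cpm), and the sums of fat body, glia (at most 471 against at least 649.8 cpm), other neurons (484 against 668 cpm), hemocytes (165 against 312 cpm), muscle (679 against 876 cpm), R7 and R8 (732 against 803 cpm) and pigment and cone cells (439.6 against 565 cpm) were lower without overlap. Their part in the values at D15 was not tested. At D30, 2 of 9 were called, mdy and Lsd-1, both lower, where 8.72% of all features were called lower. Without the factors 0 of 9 were called, where 4.4% of all features were called in either direction. D30 samples did not overlap D5 in bmm, where 15.4% of all features were higher in this way, and in Lsd-1, where 11.1% were lower. The median at D30 was −0.24 against 0.05, 0 of 9 were called without D30 replicate 3 and 3 of 9 (mdy, Lsd-1 and Lsd-2) without D30 replicate 1.

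The other genes of these pathways were followed in 5 lists with 64 genes, of which 54 were tested: fatty acid synthesis and elongation, desaturation and cytochrome b5, glycerolipid synthesis, lipid droplet, and lipolysis with fatty acid oxidation. Against D5, 4 of 54 were called higher and 0 lower at 3 h, 4 and 0 at 5 h, and 4 and 2 at 8 h. The shares of all features called higher were 4.64%, 5.07% and 4.6%, and those called lower were 3.25%, 4.53% and 4.48%. With age 0 were called higher and 2 lower at D15, where 1.52% and 2.29% of all features were called higher and lower, and 1 higher and 8 lower at D30, where 8.79% and 8.72% were. Their median log2 fold change was 0.14, −0.05 and −0.27 after the 3 exposures in order, −0.17 for D15 and −0.10 for D30, against 0.01, 0.01, −0.03, −0.01 and 0.05 over all features.

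Of the genes called higher after blue light than at D5, puml and Gpat4 were called at all 3 exposures. The first is a homolog of the lipase cofactor CGI-58, and Gpat4 is a glycerol-3-phosphate acyltransferase that starts glycerolipid synthesis. Gpat4 went from 84.4 ± 11.6 cpm at D5 to 219.8 ± 31.7 at 3 h, 230.2 ± 122 at 5 h and 217 ± 21.9 at 8 h, with log2 fold changes of 0.61 (SE 0.17, adjusted p = 0.0358), 0.81 (SE 0.15, adjusted p = 0.00507) and 1.05 (SE 0.16, adjusted p = 0.00185). puml had 79.4 ± 21.3 cpm at D5, 518 ± 89.98 at 3 h and 279 ± 29.7 at 8 h, and its 5 h samples spanned 91.5 to 1049.6 cpm, with log2 fold changes of 1.03, 1.27 and 1.59 (SE 0.27, 0.24 and 0.26). The fitted changes of puml were smaller than the ratio of its means at 3 h (6.53-fold), and the first RUVs factor separated the same conditions. The acetyl-CoA synthetase AcCoAS was called higher at 5 h (1.45, SE 0.31, adjusted p = 0.0113), where its samples spanned 161 to 5182 cpm. It was not called at 3 h, where its samples, at 943 to 1310 cpm, all lay above those of D5 (189 to 246 cpm). The genes bond (1.25, SE 0.27, adjusted p = 0.0118) and Elovl7 (0.82, SE 0.22, adjusted p = 0.0310), both elongases of fatty acids, were called higher at 3 h. For these elongases the means at 3 h were only 1.402-fold (bond, 20.6 against 14.7 cpm, with overlapping samples) and 1.11-fold (Elovl7, 39.3 against 35.4 cpm) above D5, and neither was called without the factors (adjusted p = 0.347 and 0.720). CPT2, the mitochondrial carnitine palmitoyltransferase, was called at 5 h and at 8 h, with a level at 8 h of 53.5 ± 6.03 against 26.8 ± 1.23 cpm at D5 (log2 fold change 1.03, SE 0.16, adjusted p = 0.00194). The genes called lower at 8 h were Acsl, a long-chain acyl-CoA synthetase (−1.35, SE 0.28, adjusted p = 0.0106), and Cyt-b5-r, a desaturase-like protein with a cytochrome b5 domain (−0.78, SE 0.15, adjusted p = 0.00646). Cyt-b5-r was not called at 3 h or 5 h, yet all exposed samples lay below all D5 samples. Its level was 120.1 ± 14.7 cpm at D5, 50.5 ± 10.4 at 3 h, 67.8 ± 35.7 at 5 h and 53.7 ± 7.27 at 8 h.

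**Figure D4:**
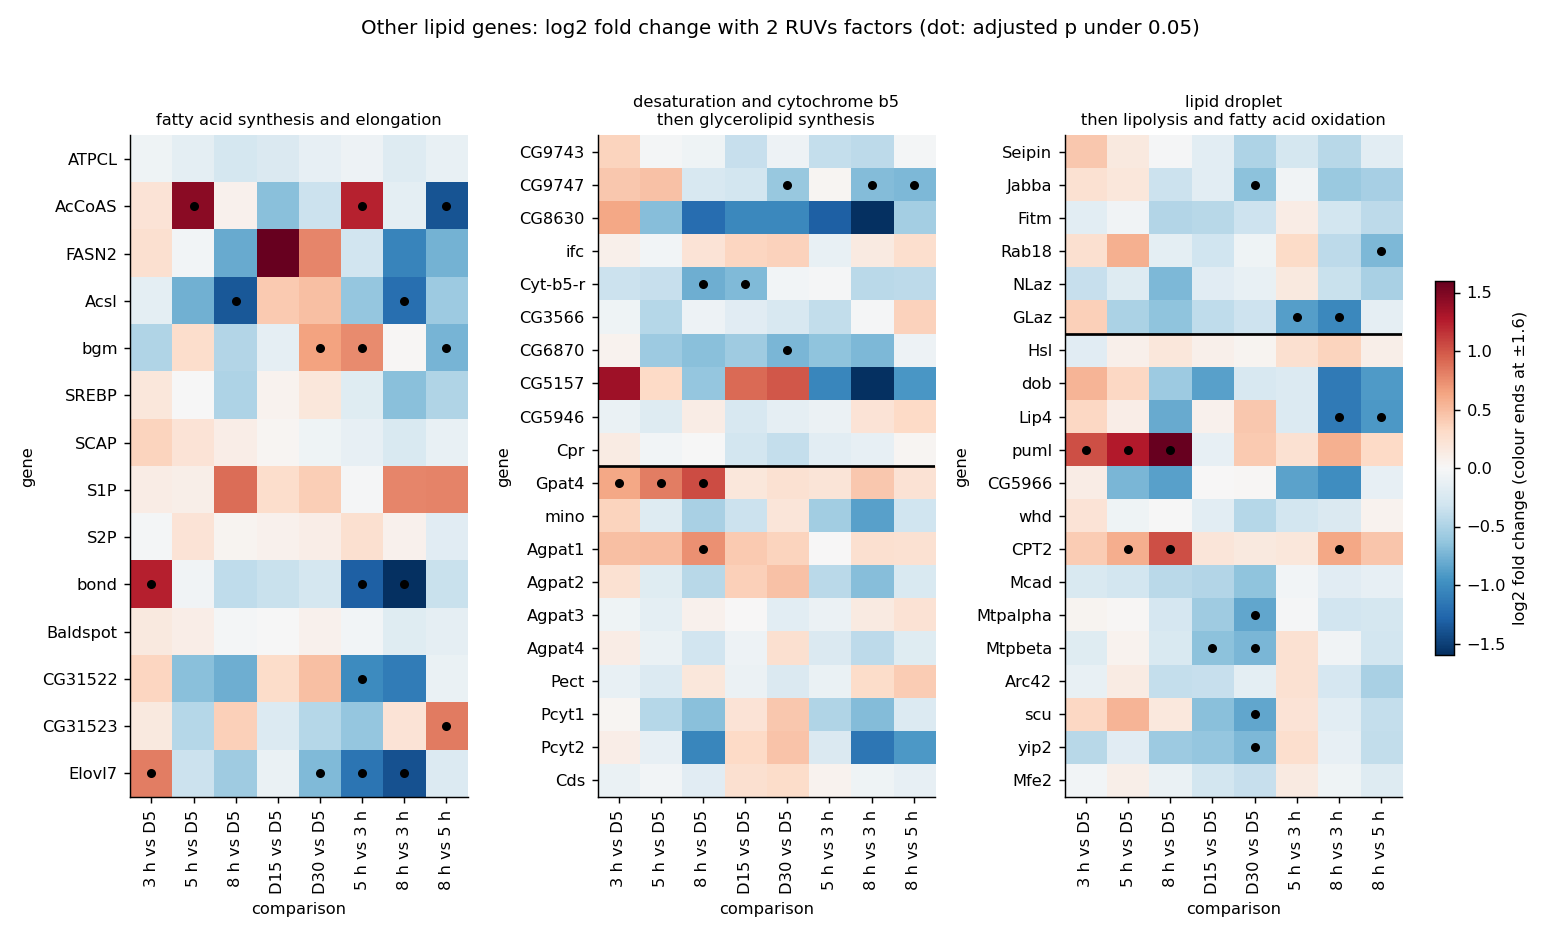
Log2 fold change with 2 RUVs factors (colour, ending at 1.6 either way) of the 54 tested genes of 5 lipid lists (y axis) in 8 comparisons (x axis), with a dot where the adjusted p was under 0.05. Gpat4 and puml carry dots at all 3 exposures against D5, and the dots at D30 are mostly blue, with 8 genes lower and 1 higher.

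Between exposures, Elovl7 and bond were called lower from 3 h to 5 h (−1.17, SE 0.20, adjusted p = 0.00221, and −1.31, SE 0.25, adjusted p = 0.00457) and from 3 h to 8 h (−1.39, SE 0.25, adjusted p = 0.00248, and −1.66, SE 0.31, adjusted p = 0.00385). GLaz, an apolipoprotein D homolog that was listed both with lipid droplets and with glia, was the next in both, at −0.89 and −1.03. In all, 2 of the 54 were called higher and 4 lower from 3 h to 5 h (bgm and AcCoAS led the higher ones), 1 and 6 from 3 h to 8 h (CPT2 was the higher one), and 1 and 5 from 5 h to 8 h. Of all features, 4.78% and 6.18%, 6.43% and 9.1%, and 3.87% and 4.35% were called higher and lower in these comparisons. From 5 h to 8 h CG31523, an elongase, was the higher one, and the desaturase CG9747 (−0.72, SE 0.15, adjusted p = 0.0101), AcCoAS and Rab18 led the lower ones. With age, Cyt-b5-r (−0.71, SE 0.13, adjusted p = 0.0117) and Mtpbeta (−0.65, SE 0.16, adjusted p = 0.0341) were called lower at D15. At D30, Mtpalpha and Mtpbeta, the subunits of the mitochondrial trifunctional protein of beta-oxidation, led the lower ones (−0.83, SE 0.15, adjusted p = 0.00261, and −0.74, SE 0.15, adjusted p = 0.00559), followed by CG9747 (−0.60, SE 0.14, adjusted p = 0.00987). The D30 samples of CG9747 spanned 10.2 to 26.2 cpm and overlapped those of D5 (20.5 to 21.3 cpm). The gene called higher at D30 was bgm, a very long-chain acyl-CoA synthetase (0.65, SE 0.17, adjusted p = 0.0182).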

How the data were processed

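Paired reads of 18 samples were trimmed, aligned to the fly genome (dm6 in the submitters' processing notes) with HISAT2 and counted per gene with HTSeq by the authors, who deposited raw counts without normalization for 17811 features, beside totals of pairs left uncounted. Those totals, kept out of library sizes, left 24.5% to 44.9% of the pairs counted. Pairs with several alignments were 25.2% to 26.6% at D30 and 6.33% to 10.5% elsewhere. Samples took their condition and replicate number from the sample titles, to which the columns of counts were matched.

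Symbols, positions and exons were read from Ensembl gene models on BDGP6.54, which is newer than the build used for alignment. Tests were run on the 9427 features (52.9%) whose count exceeded 10 throughout the 18 samples, since the cpm over 10 that the methods of the study give would leave 4211 features and drop mdy, and this stricter filter was an alternative. RUVs was written anew and gave 2 factors, which entered a design with a mean for each condition in edgeR 4.0.16 (R 4.3.3, limma 3.58.1) with TMM normalization. Quasi-likelihood tests were adjusted over all 9427 features by Benjamini-Hochberg. Correlations used log2(cpm + 0.5), and RPKM used the union of exons. The pipeline was tested on simulated data.

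The 9 genes, the other lists and the comparisons were chosen with earlier results of these data known. All 9 genes were named in every comparison, up to 3 other lipid genes per direction and comparison by adjusted p, and the 5 features most like Cyt-b5. FASN3 found no match, and Elovl7 and Cds were matched by a synonym.

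Alternatives were 0, 1 or 3 factors, no filter, a strict filter (cpm above 10 throughout) or a loose one (cpm above 1 in at least 3 samples), DESeq2 1.42.0 (size factors in edgeR, or a Wald test), the replicate number as a block, each sample left out, and fits of only the 6 D5 and D15 or the 9 blue light samples.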

Additional observations from a re-analysis of the deposited data

How the results depend on the processing

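Of 748 values of the 72 pairs of gene and comparison under settings that kept all samples of a comparison, 614 kept their sign and their side of the threshold, 68 gained a call, 29 lost it and 37 turned sign. None of the 37 passed the threshold in either setting. With 1 sample left out, 382 of 432 kept both, 8 gained, 21 lost and 21 turned sign. Settings chose which genes passed more than the direction of those that did. The 3 samples per condition limit the precision, and the cause of each change was not tested. With a filter of cpm over 1 in 3 samples the median over all features moved to 0.10 from 3 h to 8 h, and without factors to −0.10 from 5 h to 8 h.

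Counts of the 9 genes called changed as follows, with the larger changes first. Without RUVs factors 1 was called at 3 h, 6 at 8 h and 0 at D30 against D5, and 1 from 3 h to 5 h. With 1 factor it was 7 at 8 h, 1 at D30, 1 from 3 h to 5 h and 2 from 5 h to 8 h. With 3 factors it was 6 at 8 h and 4 from 5 h to 8 h. With a filter of cpm over 1 in 3 samples, or with none, it was 5 at 8 h, 0 at D30 and 1 from 3 h to 5 h. The DESeq2 Wald test called 5 at 8 h and 2 from 5 h to 8 h. Fits of fewer conditions called 4 at D15 (6 samples), and 4 from 3 h to 5 h and 5 from 5 h to 8 h (9 blue light samples). Among smaller changes, from 3 h to 8 h it was 6 with 0 or 3 factors. It was 7 there with 1 factor, with no filter and in the 9 blue light samples. It was 3 from 3 h to 5 h with 3 factors, 3 at D30 with cpm over 10 and 4 at 8 h with DESeq2 size factors. At 5 h with cpm over 10 the 1 call was Lpin, with mdy not tested. With 1 sample left out, counts ranged from 1 to 4 at 8 h, 0 to 3 at D30, 1 to 3 from 3 h to 5 h, 3 to 6 from 3 h to 8 h and 0 to 3 from 5 h to 8 h. The number of all features called moved with the setting as well. At 8 h against D5 it was 856 of 9427 in the main fit, 1799 without factors, 3288 with 1 and 1228 with 3. With cpm over 1 in 3 samples it was 1841 of 12984, with no filter 2252 of 17024, and in the Wald test 1153. At D15 it was 359 in the main fit and 2037 in the fit of 6 samples. At D30 it was 1651 in the main fit and 415 without factors.

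The following values turned sign. Against D5 at 3 h, Cyt-b5 was 0.14 without factors, Desat1 was −0.40 without factors, −0.0296 with cpm over 1 in 3 samples and −0.0875 with no filter, ACC was −0.16 without factors, and Lsd-1 was −0.34, −0.00424 and −0.0562 in the same settings as Desat1. At 5 h, Desat1 was 0.0267 with 3 factors, Lpin 0.0373 without factors, and Lsd-2 −0.18 with 1 factor, −0.0318 with cpm over 1 in 3 samples and −0.0385 with no filter. At 8 h, Cyt-b5 was −0.0565 without factors and −0.0494 with 1 factor, and bmm 0.0252 with cpm over 10. With cpm over 10, Lpin was −0.12 and Lsd-2 0.32 at D15, and ACC 0.0329 at D30. From 3 h to 5 h Desat1 was 0.0509 without factors. From 3 h to 8 h Cyt-b5 was −0.20 without factors, and bmm 0.0557 with 3 factors and 0.16 with cpm over 10. From 5 h to 8 h, mdy was −0.0267 with 1 factor and −0.0237 in the 9 blue light samples, and bmm −0.0254 with 1 factor and −0.0106 with no filter.

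With 1 sample left out, values spanned 0 in these cases: −0.14 to 0.0177 for Cyt-b5, −0.0376 to 0.38 for FASN1 and −0.12 to 0.24 for Lsd-1 at 3 h, −0.26 to 0.0359 for Desat1, −0.70 to 0.0849 for bmm and −0.0722 to 0.32 for Lsd-2 at 5 h, −0.000516 to 0.11 for Cyt-b5 at 8 h, −0.0459 to 0.21 for Lpin and −0.26 to 0.0595 for Lsd-2 at D15, −0.23 to 0.0341 for ACC and −0.46 to 0.0230 for Lpin at D30, and, for bmm, −0.48 to 0.44 from 3 h to 5 h, −0.26 to 0.21 from 3 h to 8 h and −0.37 to 0.52 from 5 h to 8 h.

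Samples were not treated as paired by replicate number. In none of the 8 comparisons did every same-numbered pair of samples deviate together at a correlation over 0.1. Mean correlations of log2 cpm ranged from −0.0615 to 0.17. After adjustment for the RUVs factors they ranged from 0.0560 to 0.26, and the highest single pair, of 5 h and D5, reached 0.56. With 3 pairs in a comparison this rule cannot exclude a pairing. With replicate number added as a block to the 2 factors, 2 of 9 genes were called from 3 h to 8 h and 3 from 5 h to 8 h, 0 at 3 h, 1 at 5 h, 3 at 8 h, 0 at D15, 2 at D30 and 3 from 3 h to 5 h. With the block and no factors, it was 1 at 3 h, 6 at 8 h and 0 at D30. The block turned the sign of Lpin at D15 (−0.00407) and of bmm from 3 h to 8 h (0.0383). With the block and no factors it turned, at 3 h, Cyt-b5 (0.14), Desat1 (−0.40), ACC (−0.15) and Lsd-1 (−0.35), at 5 h Lpin (0.0377), at 8 h Cyt-b5 (−0.0550), from 3 h to 5 h Desat1 (0.0548) and from 3 h to 8 h Cyt-b5 (−0.19).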
